A study of Mus musculus with 6 samples.

Results

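Regulatory T cells are a suppressive branch of the CD4 T cell lineage that restrains immune responses, and lymph nodes normally hold them beside conventional T cells. Foxp3 is the transcription factor that defines the lineage. It acts with Il2ra, the high-affinity chain of the interleukin-2 receptor, Ctla4, which competes with Cd28 for the ligands Cd80 and Cd86, Ikzf2 (Helios), Tnfrsf18 (GITR), Tnfrsf4 (OX40) and Lrrc32 (GARP), which holds latent TGF-beta at the cell surface. Only Foxp3 comes close to marking the lineage alone: activated T cells, innate lymphocytes, platelets and endothelium can each express some of the others.

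These 7 genes were chosen by name and read from a table of 22274 mouse genes, in which each symbol stood for 1 row. The table covers 6 RNA-seq libraries from whole popliteal lymph nodes, which receive lymph from the foot. Per the labels, 3 nodes had been exposed to extracellular vesicles (EVs, membrane particles released by cells) of the human bladder cancer line UM-UC-3, and 3 to EVs of SV-HUC-1, an immortalised human urothelial line that served as the control source. Both kinds of EV were injected into the footpad on alternate days over 10 days, and the study asked how nodal expression differs between them. The labels used here name no mouse strain, age or sex, so whether the mice had a normal T cell compartment, which bears on how low T cell values read, is not known here.

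The libraries are named LN-1 to LN-6, while the sample titles number nodes 1 to 3 within each EV source, so no library can be tied to an EV source. Levels are therefore given for each library, with no contrast between UM-UC-3 and SV-HUC-1 nodes, no mean and no test. Each library held between 13039899 and 18093707 estimated counts. A count of 3, the limit that a count of 0 allows, corresponded to between 0.167 and 0.235 CPM (counts per 1000000 counts of the library) in these libraries.

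The data went against the name of the gene group. Foxp3 and Ctla4 were almost without reads in all 6 nodes, and genes of the T cell receptor complex were low, whereas B cell, endothelial and nodal stromal genes were abundant. The summed level of Cd3d, Cd3e, Cd3g and Cd247, the signalling chains of the T cell receptor, was 17.8 to 42.7 TPM (counts divided by exon length and scaled to sum to 1000000 in each library), with a median of 30.7 TPM. The 3 B cell genes Ms4a1, Cd79a and Cd79b summed to between 3445 and 5091 TPM, which was 96.8 to 194 times the receptor complex of the same library. Cd3e, the lowest of these chains by median TPM, had 40 to 77 counts per library, and Cd3d had 23 to 67. Cd3g had 99 to 261 counts and Cd247 had 129.6 to 388.4, against 7290 to 13096 counts of Ms4a1 (CD20). Trac, the constant segment of the alpha receptor chain, had 12 to 54 counts, and Trdc, that of the delta chain, had 162 to 389. Trbc1 and Trbc2, near-identical beta chain segments that share reads, had 539 to 788 counts together. The receptor constant segments were looked at after the other values had been seen. All 4 genes of nodal stroma and venules were detected in every library, among them Cxcl13, the B cell follicle chemokine, at 1337 to 1717 TPM, and Glycam1, a ligand for L-selectin on high endothelial venules, at 8239 to 17018 TPM. In bulk RNA, fewer cells of a type and less RNA per cell cannot be told apart. The 7 genes are called regulatory T cell genes here by their list, not as evidence that such cells supplied the reads.

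**Figure D1:**
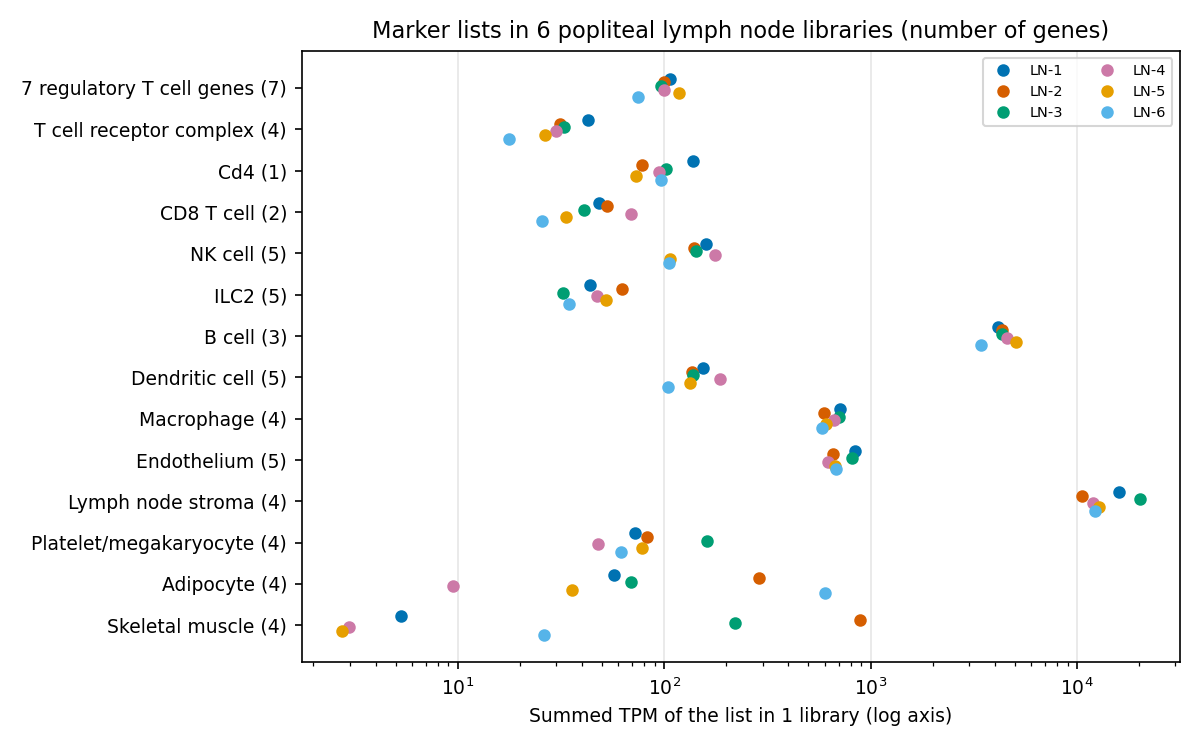
Summed TPM (log axis) of each marker list in each of the 6 libraries, 1 point per library, with the number of genes in brackets. The 3 B cell genes lie between 3445 and 5091 TPM and the 4 T cell receptor complex genes between 17.8 and 42.7 TPM, while adipocyte and skeletal muscle genes spread the most between libraries.

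Genes of tissues that lie next to a node also differed among libraries. Skeletal muscle genes (Acta1, Ckm, Myh4 and Tnnt3) summed to 894.1 TPM in LN-2 and 220.9 TPM in LN-3, against 2.74 to 26.3 TPM in the other libraries. Adipocyte genes (Adipoq, Plin1, Cidec and Lep) summed to 602.7 TPM in LN-6 and 286.7 TPM in LN-2, against 9.51 to 69.1 TPM elsewhere. By summed TPM, LN-6 also had the lowest values of the B cell, T cell receptor complex, dendritic cell and macrophage lists. The macrophage sum was 584.8 TPM in LN-6 against 592.4 TPM in LN-2. In CPM, the macrophage genes Csf1r, Adgre1, Cd68 and Siglec1 were each lowest in a library other than LN-6. Each of the other lists held genes that were lowest in LN-6 in CPM and genes that were lowest elsewhere.

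Foxp3 (ENSMUSG00000039521; GRCm38 chromosome X, 7573644 to 7595245, plus strand) had 1.03 estimated counts in LN-1, 3.06 in LN-2, 7.19 in LN-3, 3.04 in LN-4, 11.1 in LN-5 and 2 in LN-6. Over all 6 libraries this came to 27.4 of 89937712 counts. Rounded to whole reads, 4 libraries stood at or under 3 counts, and LN-3 and LN-5 stood above. Its level was 0.0680 to 0.686 CPM, or 0.0500 to 0.512 TPM. The ratio of LN-5 to LN-1, 11 reads against 1, was 10.1 with an exact 95% counting interval from 1.5 to 444, which takes no account of choosing the extremes of 6 libraries. It was 4.39 without LN-1. The 95% Poisson intervals of the highest and lowest library overlapped.

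In GENCODE M21 the exons of Foxp3 overlap those of Ccdc22, a gene on the minus strand, over 590 bases, and those of Ppp1r3f, also on the minus strand, over 266 bases. Ccdc22 had 415 to 521.9 estimated counts per library and Ppp1r3f 92 to 162. The Foxp3 estimate was not a whole number in 5 of 6 libraries, but the sum of Foxp3 and Ccdc22 was whole, within 0.005, in 6 of 6 libraries, at 417 to 533. The fractions of the Foxp3 and Ccdc22 estimates thus complemented each other. Exons of Flicr, on the same strand as Foxp3, and of Gm36995, on the opposite strand, also overlap those of Foxp3. No source used here says whether counting took strand into account. Whether part of the few Foxp3 counts came from these overlapping genes was not tested.

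Ctla4 (ENSMUSG00000026011; chromosome 1, 60887000 to 60915832, plus strand), the inhibitory receptor, had 9 counts in LN-1, 7 in LN-2, 4 in LN-3, 8 in LN-4, 5 in LN-5 and 3 in LN-6. That is 36 counts over all libraries and 0.235 to 0.594 CPM. LN-6 was lowest and LN-1 highest, with a ratio of 2.53 and an exact 95% counting interval of 0.631 to 14.5, so these nodes did not differ detectably at this depth. Cd28, the activating receptor for the same ligands, lies in the same family and had 132 to 306 counts. The ligand Cd86 had 86.2 to 106.2 TPM and Cd80 had 14.7 to 23.6 TPM, against 0.295 to 0.858 TPM of Ctla4.

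The other 5 genes passed a filter of at least 1 CPM in at least 3 libraries, as did 13789 of the 22274 listed genes (61.9%). Tnfrsf18 had the highest level per length of the 7, at a median of 46.8 TPM, and ranked at the 83.7th percentile of all genes by its median over libraries. Il2ra and Tnfrsf4 followed at medians of 19.7 and 19.3 TPM, with ranges of 14.1 to 33.7 TPM and 15.3 to 26.3 TPM that overlapped. Lrrc32 had a median of 10.4 TPM and Ikzf2 one of 2.78 TPM. Ctla4, at a median of 0.547 TPM, and Foxp3, at 0.141 TPM, came last, at the 35.0th and 29.6th percentile. The ranges of Ctla4 and Foxp3 overlapped each other, and neither reached the lowest value of Ikzf2, 2.37 TPM.

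**Figure D2:**
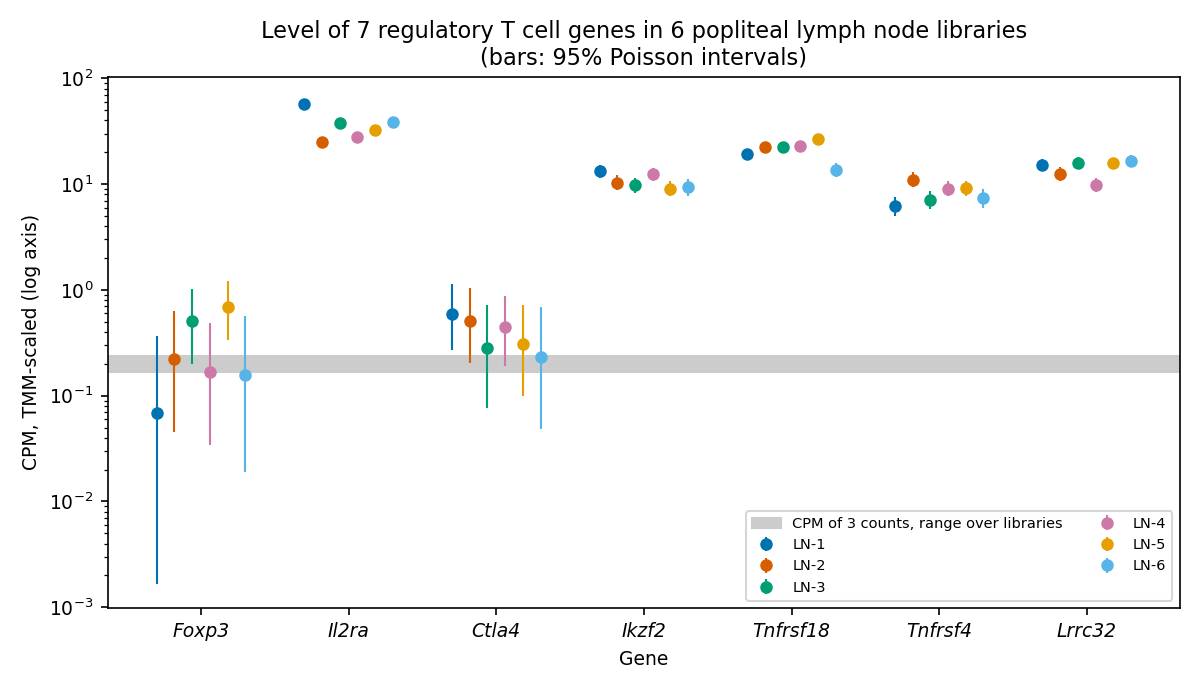
CPM after scaling between libraries by TMM, which evens out composition (log axis) of the 7 genes in each library, with 95% Poisson intervals as bars and the CPM of 3 counts as a grey band. Foxp3 and Ctla4 lie at or below 0.686 CPM in every library, while the other 5 genes lie between 6.20 and 57.2 CPM.

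Il2ra (ENSMUSG00000026770; chromosome 2, 11642807 to 11693193, plus strand) had 57.2 CPM in LN-1, 24.9 in LN-2, 37.8 in LN-3, 28.1 in LN-4, 32.6 in LN-5 and 38.9 in LN-6. LN-1 stood above the other libraries, and LN-2 was lowest. The highest value was 2.30 times the lowest, and 1.56 times without LN-1. The biological coefficient of variation (BCV, the spread between libraries beyond counting error relative to the level) was 0.293 over all 6 libraries and 0.184 without LN-1. Over all 6 libraries this was the widest spread of the 5 genes above the filter, but without LN-1 the BCV of Tnfrsf18, 0.233, and of Lrrc32, 0.199, exceeded it. LN-1 also had the highest sum of the T cell receptor complex, 42.7 TPM, and the most Cd4, 137.8 TPM against 72.7 to 101.7 TPM elsewhere; the part of these in its Il2ra level was not tested.

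The partners of Il2ra in the interleukin-2 receptor were more abundant and steadier. Il2rb, the beta chain, had 61.1 to 95.6 TPM and Il2rg, the chain shared with other cytokine receptors, had 609.3 to 738.3 TPM. Per length, Il2rb was 2.62 to 5.91 times and Il2rg up to 49.1 times, with a median of 36.8 times, the level of Il2ra in the same library. The ligand Il2, which activated conventional T cells make, had 0 to 7.01 counts. Stat5a and Stat5b, the transcription factors that the receptor activates, had 24.8 to 32.3 TPM and 58.0 to 81.5 TPM; reads of this related pair can be split between them.

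Ikzf2 (ENSMUSG00000025997; chromosome 1, 69531214 to 69687245, minus strand), a zinc finger factor of the Ikaros family, had 13.3 CPM in LN-1, 10.3 in LN-2, 9.76 in LN-3, 12.4 in LN-4, 9.09 in LN-5 and 9.39 in LN-6. LN-1 and LN-4 lay above the others. The highest value was 1.46 times the lowest, and the BCV was 0.137. An antisense gene, Gm29114, overlaps exons of Ikzf2. Its relative Ikzf4 (Eos), a Foxp3 partner, had 46 to 107 counts and ranged 1.83-fold, from LN-3 to LN-4.

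Tnfrsf18 and Tnfrsf4 are neighbouring costimulatory receptors of the TNF receptor superfamily, 9551 bases apart on the plus strand of chromosome 4. Tnfrsf18 (ENSMUSG00000041954; 156026164 to 156028895) had 19.3 CPM in LN-1, 22.3 in LN-2, 22.5 in LN-3, 22.8 in LN-4, 26.8 in LN-5 and 13.6 in LN-6. LN-6 was lowest. Without it the ratio of highest to lowest was 1.39, against 1.97 with all libraries, and the BCV was 0.102, against 0.212. Leaving out the highest or lowest library narrows the ratio by construction, here as for Il2ra above and Lrrc32 below. By summed TPM, LN-6 was also the library with the most adipocyte and the least B cell and T cell receptor complex message, as given above. The part of this in its Tnfrsf18 level was not tested. An antisense gene, Gm16008, overlaps exons of Tnfrsf18, and reads from the pair could not be told apart without strand.

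Tnfrsf4 (ENSMUSG00000029075; 156013843 to 156016612) had 6.20 CPM in LN-1, 11.1 in LN-2, 7.14 in LN-3, 9.07 in LN-4, 9.21 in LN-5 and 7.36 in LN-6. LN-2 was highest and LN-1 lowest, a ratio of 1.78. The ratio of Tnfrsf18 to Tnfrsf4 per length was 1.66 to 2.83, above 1 in all 6 libraries. Their ligands were low: Tnfsf18 (GITR ligand) had 3 to 11 counts and did not pass the filter, and Tnfsf4 (OX40 ligand) had 24 to 50 counts, the most in LN-3.

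Lrrc32 (ENSMUSG00000090958; chromosome 7, 98489283 to 98502181, plus strand) had 15.0 CPM in LN-1, 12.6 in LN-2, 15.8 in LN-3, 9.91 in LN-4, 15.7 in LN-5 and 16.6 in LN-6. LN-4 was lowest, and the other libraries lay within a ratio of 1.32 of each other once it was left out; with it the ratio was 1.67. Without LN-4 the BCV was 0.0767, against 0.177 with it. LN-4 also had the lowest sums of the endothelial list, 624.8 TPM, and of the platelet and megakaryocyte list, 47.7 TPM, both types that can express Lrrc32; their part in the result was not tested. Tgfb1, the cytokine whose latent form Lrrc32 binds, had 85.6 to 127.5 TPM, and the integrin chains that release it, Itgav and Itgb8, had 11.4 to 14.0 TPM and 0.977 to 1.74 TPM.

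**Figure D3:**
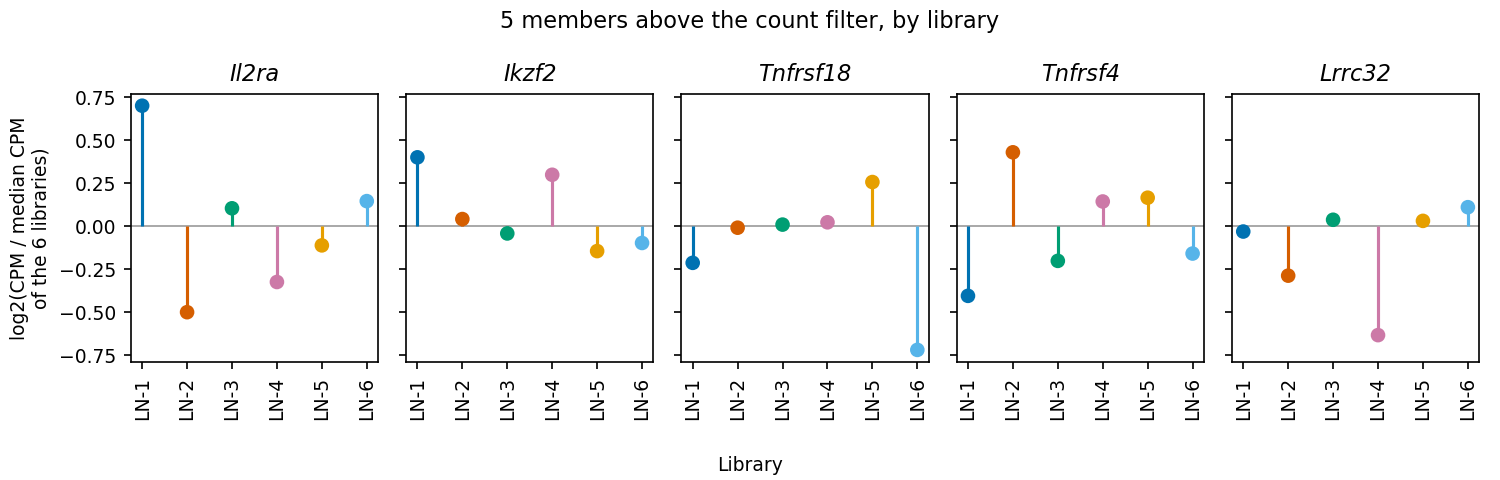
Log2 of the CPM of each library over the median of the 6 libraries, for the 5 genes above the filter. The library that departs most differs by gene: LN-1 is high for Il2ra and Ikzf2, LN-6 is low for Tnfrsf18, LN-2 is high for Tnfrsf4 and LN-4 is low for Lrrc32.

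The 95% Poisson intervals of the highest and the lowest library were apart for all 5 members above the filter, but not for Foxp3 and Ctla4. The same held for 78.2% of the 13789 genes above the filter, so a spread beyond counting error was usual in this table. With 99% intervals 4 of these 5 were apart, Ikzf2 no longer among them, against 61.3% of the genes above the filter. The BCV of the 5 genes had a median of 0.189, against 0.101 over all genes above the filter. The sets were not matched by level. These 6 libraries include both EV sources, so a BCV holds any difference between the sources as well as that between nodes. The 5 genes did not share 1 order of libraries: LN-1 was highest for Il2ra and Ikzf2 but lowest for Tnfrsf4. In CPM, LN-6 was lowest for Tnfrsf18 but highest for Lrrc32. By TPM, LN-6 was still lowest for Tnfrsf18, but for Lrrc32 it had 10.36 TPM, below the 11.43 TPM of LN-5.

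Set against the summed TPM of Cd3d, Cd3e, Cd3g and Cd247, the members spanned a wide range of levels. The ranges of several neighbours in that order overlapped. The sum leaves out the receptor constant segments Trac, Trbc1, Trbc2 and Trdc, and it was not tested as a measure of T cell content. Foxp3 had 0.00117 to 0.0193 times the summed TPM of the T cell receptor complex in the same library, and Ctla4 0.0115 to 0.0225 times. Ikzf2 had 0.0796 to 0.133 times that sum and Lrrc32 0.237 to 0.583 times. Tnfrsf4, at 0.358 to 0.888 times, and Il2ra, at 0.449 to 1.12 times, came near that sum. Tnfrsf18 about equalled or passed the sum in every library, at 1.00 to 2.27 times. Relative to Cd4, Il2ra was steadier, at 0.176 to 0.268 times the TPM of Cd4, a ratio of 1.53 between the highest and lowest library, against 2.30 for its CPM alone and 2.5 relative to the receptor complex. The other genes above the filter varied more relative to Cd4 than in CPM: the ratio was 3.03 for Tnfrsf18, 3.03 for Tnfrsf4, 2.09 for Lrrc32 and 1.54 for Ikzf2. Cd4 had 72.7 to 137.8 TPM and so exceeded the sum of Cd3d, Cd3e, Cd3g and Cd247 in every library. Macrophages, dendritic cells and innate lymphocytes of the mouse can express Cd4 too.

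**Figure D4:**
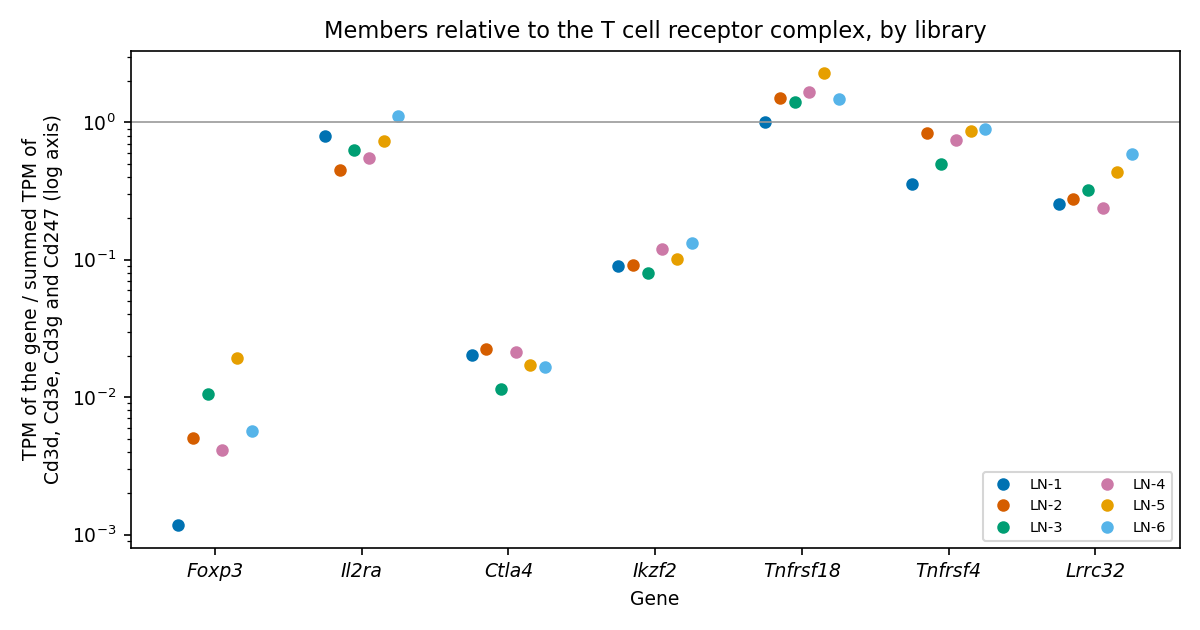
TPM of each gene divided by the summed TPM of Cd3d, Cd3e, Cd3g and Cd247 in the same library (log axis), 1 point per library, with a line at equality. Foxp3 and Ctla4 stay at or below 0.0225, while Tnfrsf18 lies between 1.00 and 2.27.

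Other genes known from regulatory T cells ranged from near absence to high levels, as the members did. Of 19 such genes, 15 passed the filter. The 4 that did not were Izumo1r (folate receptor 4), with 3 to 7 counts, Gpr83, with 1 to 5, the inhibitory receptor Tigit, with 5 to 15, and the suppressive cytokine Il10, with 1 to 15. Ccr8, a chemokine receptor of tissue regulatory T cells, passed narrowly with 6 to 35 counts. The most abundant were genes that other leukocytes also express, among them Irf4, a transcription factor of B and myeloid cells too, at 79.4 to 112 TPM, the TNF receptor Tnfrsf1b at 75.7 to 123.7 TPM, the ectonucleotidase Entpd1 at 28.9 to 42.2 TPM, the costimulatory receptor Icos at 28.0 to 47.5 TPM and the integrin Itgae at 20.6 to 46.8 TPM. The ratio of highest to lowest library had a median of 1.62 over the 15, against 1.37 over all genes above the filter. This ratio includes counting error, which is larger at low counts, and the sets were not matched by level. Of 15 ligands, receptor chains and cofactors of the members, 13 passed, all but Il2 and Tnfsf18, and their median ratio was 1.36. Cbfb and Runx1, which pair with Foxp3 in regulatory T cells and act in many blood cells, had 104.4 to 147.7 TPM and 10.4 to 17.6 TPM.

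**Figure D5:**
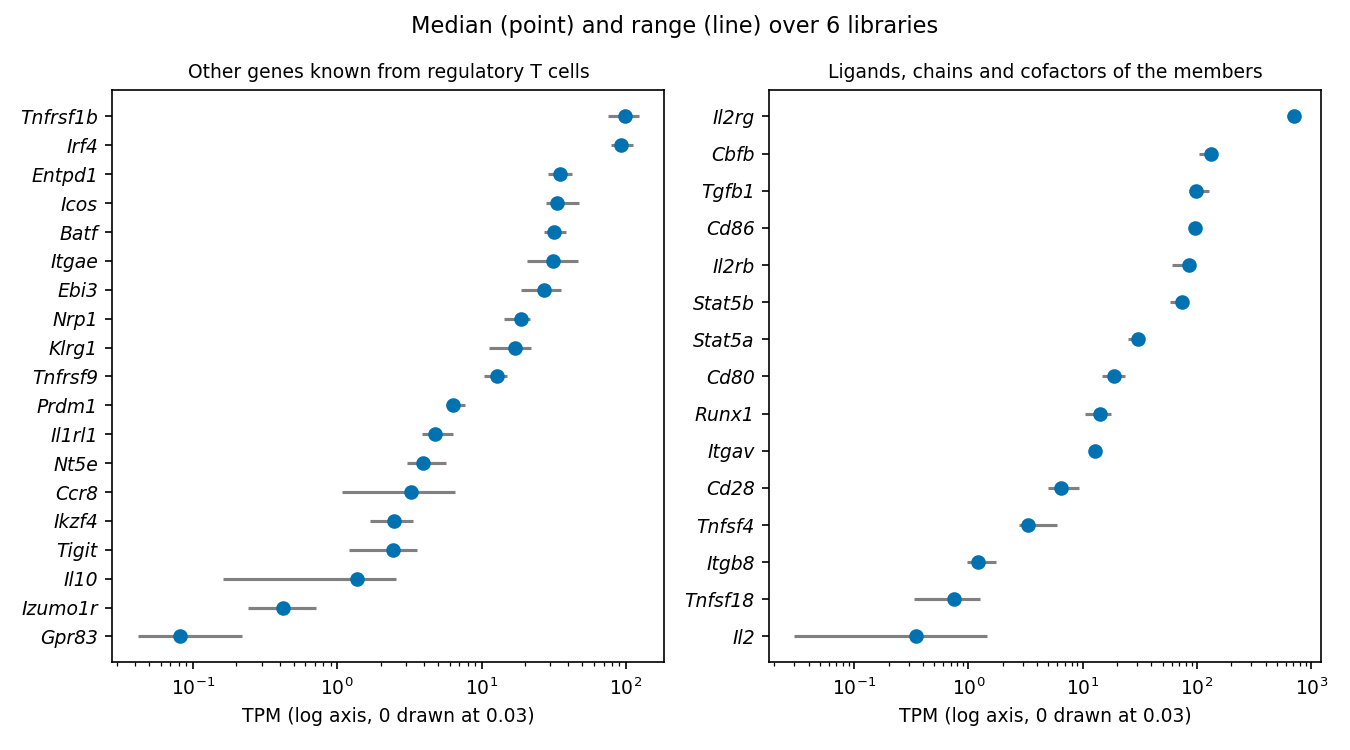
Median (point) and range (line) over the 6 libraries of TPM (log axis) for 19 other genes known from regulatory T cells and for 15 ligands, receptor chains and cofactors of the 7 members. Izumo1r and Gpr83 lie below 1 TPM throughout, whereas Irf4 lies at 79.4 to 112 TPM and Il2rg at 609.3 to 738.3 TPM.

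Genes of other cells that can express the members were present. The group 2 innate lymphocyte list summed to 32.4 to 62.3 TPM, with Gata3 at 10.3 to 19.7 TPM and Il17rb at 9.89 to 19.5 TPM, and the natural killer cell list to 105.4 to 175.7 TPM, with the receptor Ncr1 at 68.8 to 120.8 TPM. In each of these lists 1 gene did not pass the filter: the cytokine Il5, with 3 to 18 counts, and the receptor Klra8, with 0 to 14.7. Of the follicular helper T cell genes, Cxcr5 and Bcl6, which B cells share, had 212.9 to 343.9 TPM and 25.1 to 41.3 TPM, while Il21 had 0 to 2 counts. The part of these cells in the levels of Il2ra, Ikzf2, Tnfrsf18 and Tnfrsf4 was not tested.

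The genes whose pattern over the 6 libraries was most like that of Foxp3, by Pearson's r on log2(CPM + 1), were Camta1 (0.989), Slc7a6os (0.983), Ccdc137 (0.980), Zfp473 (0.979) and Anks3 (0.971). Of the genes above the filter, 54 (0.392%) reached 0.9. Since the Poisson intervals of Foxp3 overlapped between its highest and lowest library, this likeness is a description of 6 libraries only.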

How the data were processed

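The authors deposited 1 table with, per the file headers, estimated counts and FPKM values of 6 libraries. Of the deposited counts, 8.83% to 9.33% per library were not whole. Total RNA (1 ug, TruSeq RNA kit, per the labels) was sequenced; HISAT2 version 2.4 and mm10 are named in the submitters' processing notes, but no source used here names the counting tool, its annotation or a strand setting. The count columns were used as 6 libraries of 1 tissue; the 6 FPKM columns were not used.

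Members were matched by deposited symbol, list genes by GENCODE M21 (GRCm38) name. Counts were scaled to CPM by TMM (edgeR 4.0.16, R 4.3.3); TPM used the union of M21 exons (22219 genes). Counts rounded to whole numbers gave exact Poisson intervals, which cover counting error only, and unmoderated edgeR dispersions with an intercept alone, both tested on simulated data. No group test was run. Python 3.11.15, pandas 2.3.3, SciPy 1.17.1 and DESeq2 1.42.0 (size factors) were also used. The rule for named genes was all members, the 2 lists of related genes and the 5 genes most like Foxp3. One marker gene is not reported here, and its list was summed without it. Members and lists were chosen with earlier results of these data known.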

Additional observations from a re-analysis of the deposited data

Results flagged for a closer look

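Of 57 profiles over the 6 libraries, 4 had 1 library set apart from the rest beyond Dixon's 95% critical value for the gap over the range; chance gives such a gap in about 1 in 20 groups. Batf, a transcription factor of activated lymphocytes, had 17.3 CPM in LN-3, against 13.6 CPM in the next library and 11.4 in the lowest. Cd28 had 17.0 CPM in LN-4, against 12.7 and 10.3. The platelet and megakaryocyte genes summed to 162.1 TPM in LN-3, against 82.2 in the next library and 47.7 in the lowest. The skeletal muscle genes summed to 894.1 TPM in LN-2, against 220.9 and 2.74. None of the 7 members was among the 4.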

How the results depend on the processing

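No paired analysis was possible because the libraries carry no label that ties them to an EV source or to a numbered sample. The ratio of the highest to the lowest library had a median of 1.78 over the 5 genes above the filter and 1.97 over all 7, and the value over all 7 stayed between 1.67 and 1.97 when each library was left out in turn; total-count scaling, DESeq2 size factors, leaving out immunoglobulin genes, matching by identifier and leaving out LN-2 with LN-3 or with LN-6 (both chosen after seeing the data) moved it by less than the spread between libraries. The median rank of the members was at percentile 57.1 and moved to 42.2 when genes without a count in the library were left out, which removes low genes by construction. The median level relative to the T cell receptor complex was 0.298 and moved to 0.105 with Cd4 as the denominator. Of 238 alternative values for single members, 22 moved by more than the spread between libraries. Depth limits Foxp3 and Ctla4, at medians of 3.05 and 6 counts per library.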

Other observations

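The same 3 libraries held the highest Il2ra and the lowest Tnfrsf4. Genes of endothelium, macrophages and venules divided the libraries in the same way, so this was not particular to these members. LN-1, LN-3 and LN-6 had 57.2, 37.8 and 38.9 CPM of Il2ra, and LN-2, LN-4 and LN-5 had 24.9, 28.1 and 32.6. For Tnfrsf4, LN-1, LN-3 and LN-6 had 6.20, 7.14 and 7.36 CPM, and LN-2, LN-4 and LN-5 had 11.1, 9.07 and 9.21. Il23r, a receptor chain for interleukin-23, had 8.51, 8.77 and 11.8 CPM in LN-1, LN-3 and LN-6, and 3.35, 3.45 and 3.09 in LN-2, LN-4 and LN-5. Il22 had 0 to 2 counts in every library, and Tnfrsf11a (RANK), at 24.9 to 31.8 CPM, did not divide the libraries in this way. Cd4, at 165, 131 and 132 CPM in LN-1, LN-3 and LN-6 and 97.0, 113 and 85.9 in LN-2, LN-4 and LN-5, divided them too. Lyve1, a receptor of lymphatic endothelium, did so at 140, 131 and 117 CPM against 103, 67.3 and 73.4. The endothelial list, which includes Lyve1, summed to 836.9, 809.4 and 679.8 TPM against 656.2, 624.8 and 671.6. Within that list Pecam1, Cdh5 and Kdr also divided the libraries in CPM. Prox1 did not, as its CPM in LN-3 was not above that in LN-2. The macrophage genes Csf1r and Siglec1 and the nodal genes Glycam1, Madcam1 and Ccl19 divided them too. Adgre1, Cd68 and Cxcl13 of the same lists did not. Of the members, Ikzf2, Tnfrsf18 and Lrrc32 did not divide them. The endothelial sum and all genes named here other than the members were picked for this after the member values had been seen. These sets of libraries were also chosen from the data, and the share of all genes that divide the libraries in this way was not counted. The shared division of Il2ra and Tnfrsf4 is therefore a description only. Whether the sets match the EV sources is not known, and they were not tested.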
